A study of Mus musculus with 4 samples.

Results

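The genes described here encode the IL-1, IL-18 and IL-33 cytokines and their receptors, followed through whole ear skin with and without imiquimod (IMQ) in mice with and without epithelial TRAF6. They are Il1a, Il1b, Il1rn, Il1r1, Il1r2, Il1rap, Il18, Il18r1, Il33 and Il1rl1. A gene was measured where a probe set carried its symbol alone in the platform's annotation. That held for 8 of the 10 genes, each with 1 probe set, among 19938 named genes in all. The expression of Il1r1 and Il1rl1 was not analysed here, and only the bases before their transcription starts are searched below.

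Total RNA of whole ears was read on 4 arrays of the Affymetrix type Mouse Gene 1.0 ST, which carries probes along each transcript. The arrays hold skin of the epithelial knockout Traf6EKO (EKO) with IMQ, EKO untreated, Traf6f/f (f/f) with IMQ, and f/f untreated. All mice were 8-week-old females, and the f/f mice carry the floxed Traf6 gene without the epithelial deletion. IMQ, a TLR7 agonist that provokes psoriasis-like inflammation in mouse skin, was given as 10 mg of cream per day on the ear for 2 days. The labels do not name the promoter that drives the deletion. Each group holds 1 array, so no value has a replicate error and no difference has a p-value. The series' description states n = 2, but the labels do not say whether RNA of 2 mice shared an array. Levels are log2 values made by the authors with RMA, differences are log2 differences, and the number of arrays limits their precision. In such bulk tissue, fewer cells of a type and less RNA per cell cannot be told apart. All 8 keratinocyte markers (Krt5, Krt14, Krt15, Krt1, Krt10, Trp63, Dsg3 and Itgb4) lay above the median of named genes on every array, with mean levels of 11.58 in EKO IMQ, 11.53 in EKO untreated, 11.56 in f/f IMQ and 11.31 in f/f untreated skin. Traf6 itself read 9.35 with IMQ and 9.65 untreated in EKO skin, against 9.30 with IMQ and 9.51 untreated in f/f skin. Its level was therefore not lower on the arrays labelled EKO. No position was paired with its probe set, which may lie outside the deleted exons, and whole ear holds other cells, so this level is no check of the labels.

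IL-1 alpha and IL-1 beta both signal through the receptor IL1R1 with its accessory chain IL1RAP, and the receptor antagonist encoded by Il1rn blocks that receptor. IL1R2 binds IL-1 without passing a signal and acts as a decoy. IL-33 signals through ST2, the product of Il1rl1, with the same accessory chain, and IL-18 through its own receptor pair. The signalling receptors of all 3 cytokine groups act through MyD88 and IRAK kinases to TRAF6. Keratinocytes store IL-1 alpha and, in the mouse, make IL-33, which are released as alarm signals when cells are damaged. IL-1 beta comes mostly from myeloid cells and is cleaved to its active form by caspase-1.

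With IMQ, f/f skin had higher levels of 3 cytokines, Il1b (14.7-fold), Il1a (4.11-fold) and Il33 (3.07-fold), and of the antagonist Il1rn (2.11-fold). In EKO skin the same comparison gave 1.75-fold for Il1b, 1.24-fold for Il1a, 1.10-fold for Il33 and 1.27-fold for Il1rn. The IL-18 cytokine and the measured receptor genes stayed within 1.44-fold in both genotypes. A gene was counted from a difference of 2-fold upward, provided that 1 or more of the arrays compared showed it at or above that array's median over named genes. This median is called the floor and was 6.93 to 6.98. By this rule 4 of the 7 genes that reached the floor were higher and 0 lower with IMQ in f/f skin, where 3.82% of 10548 named genes counted as higher and 2.63% as lower. Il1b reached the floor only on the f/f IMQ array, where it was high, so it could enter the count only as higher. In EKO skin 0 of the 6 genes that reached the floor, without Il1b and Il18r1, were higher and 0 lower, beside 0.671% and 0.0972% of 10285 genes. The median difference of all 8 genes, with or without the floor reached, was 0.11 in EKO and 0.49 in f/f skin, beside -0.01 in each over all named genes.

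**Figure D1:**
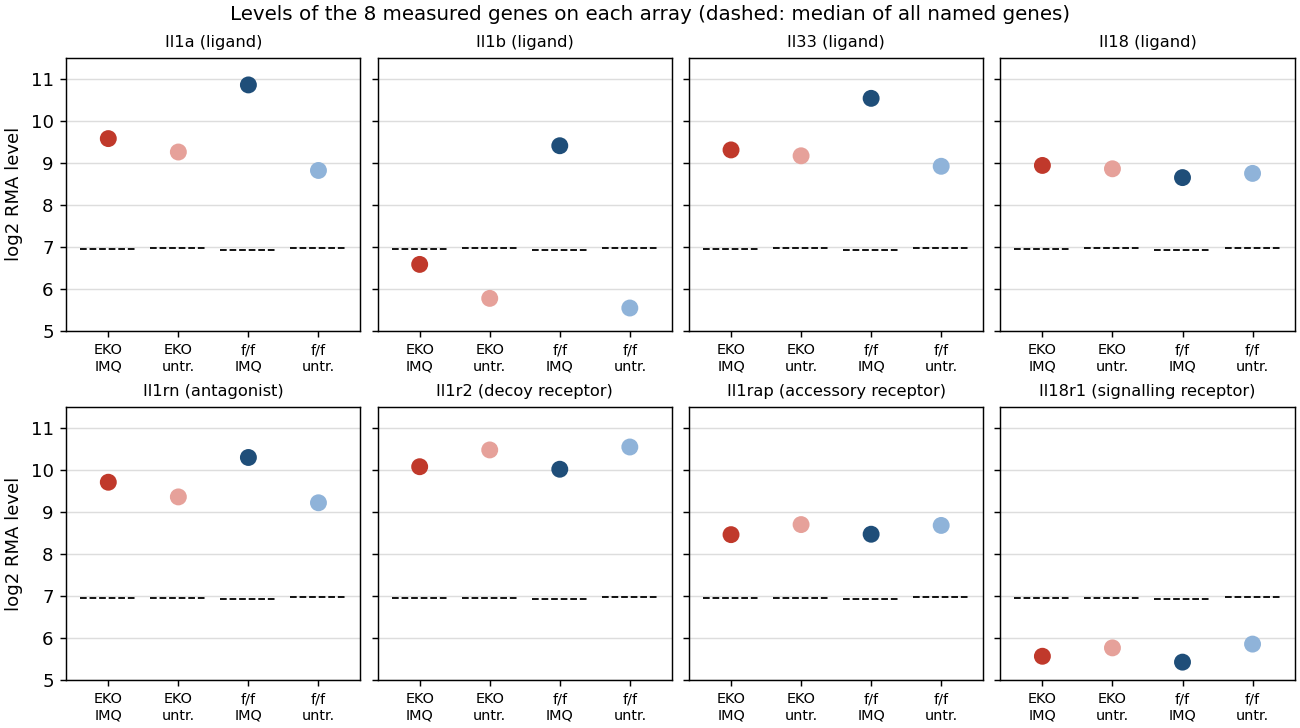
Log2 RMA level (vertical axis) of each measured gene on the EKO IMQ, EKO untreated, f/f IMQ and f/f untreated arrays, 1 point per array. The dashed lines mark the median of all named genes on each array. Il1a, Il1b, Il33 and Il1rn are highest on the f/f IMQ array, Il1b passes the dashed line there alone, and Il18r1 stays below it on all 4 arrays.

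The bases just before the transcription starts are shown for the 4 genes that were at least 2-fold higher with IMQ in f/f skin. Their common direction follows from that choice, and whether they are regulated together was not tested. RefSeq windows (build GRCm38.p6) were found for all 10 genes, 17 windows in all because 5 genes have several starts. Each window holds the 250 bases before a start, 5′ to 3′ on the gene's strand, with TATA-box letters (TATAAA) and AP-1 letters (TGANTCA) in capitals. Il1a and Il1b have 1 start each in the table. For Il1rn and Il33, which have several, a window that holds one of these motifs was chosen. The array values do not tell which start was in use.
Il1a, chr2:129309973-129310222, minus strand: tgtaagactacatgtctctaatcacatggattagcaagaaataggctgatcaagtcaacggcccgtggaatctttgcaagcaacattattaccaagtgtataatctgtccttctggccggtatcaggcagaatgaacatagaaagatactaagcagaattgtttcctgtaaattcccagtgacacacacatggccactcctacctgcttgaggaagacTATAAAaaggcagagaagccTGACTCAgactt
Il1b, chr2:129371140-129371389, minus strand: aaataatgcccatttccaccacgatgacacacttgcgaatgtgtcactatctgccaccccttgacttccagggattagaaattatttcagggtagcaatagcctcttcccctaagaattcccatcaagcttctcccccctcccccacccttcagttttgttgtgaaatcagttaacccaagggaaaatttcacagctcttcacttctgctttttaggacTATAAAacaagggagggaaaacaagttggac
Il33, chr19:29945540-29945789, plus strand: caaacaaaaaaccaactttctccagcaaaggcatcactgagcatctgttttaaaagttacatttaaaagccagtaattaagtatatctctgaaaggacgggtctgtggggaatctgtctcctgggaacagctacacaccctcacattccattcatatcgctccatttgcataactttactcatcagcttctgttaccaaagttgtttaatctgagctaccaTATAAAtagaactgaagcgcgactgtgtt
Il1rn, chr2:24336610-24336859, plus strand: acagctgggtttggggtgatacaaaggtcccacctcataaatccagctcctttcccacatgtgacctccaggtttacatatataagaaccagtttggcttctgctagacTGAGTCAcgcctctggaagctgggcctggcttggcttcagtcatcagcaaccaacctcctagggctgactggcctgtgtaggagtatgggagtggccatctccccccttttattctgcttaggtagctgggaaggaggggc

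The TATA-box letters began 32 bases before the start in Il1a, 31 in Il1b and 29 in the shown Il33 window. Over both strands they were found in 5 of the 17 windows, of Il1a, Il1b, Il33 and Il18, beside 12.4% of all 32851 windows of this length. In the other Il33 window they began 203 bases before the start. In Il18 they lay 175 to 170 bases before it, on the opposite strand. The AP-1 letters lay 12 to 6 bases before the Il1a start and 141 to 135 bases before the shown Il1rn start. They read the same on either strand, and occurred in 2 of the 17 windows and in 6.75% of all windows. The kappaB consensus, searched on both strands, was found only in 1 window of Il1r1 among the 17, beside 7.25% of all windows. C/EBP-type letters (TTNNGNAA) were in 10 of the 17 windows and in 36.8% of all windows. Overlapping windows of Il1rn share a match, which is counted in each. STAT-type letters (TTCNNNGAA) were in 2 of the 17 windows, of Il1r2 and Il18r1, and in 7.02% of all windows. These matches describe letters and are not shown to be sites.

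Il1b, the ligand made mainly by myeloid cells, had a level of 6.58 with IMQ and 5.77 untreated in EKO skin, against 9.41 with IMQ and 5.54 untreated in f/f skin. The f/f IMQ array alone stood above the floor, and the other 3 levels lay in the range where signal approaches background. The IMQ difference was 0.81 in EKO and 3.88 in f/f skin. The f/f value was the 19th highest of the 10548 genes compared. With IMQ, EKO skin was 7.12-fold below f/f skin (-2.83), the 7th lowest difference of 10282 genes. Each of these comparisons has at least 1 level under the floor, where low signals are compressed, so the folds and ranks of Il1b are imprecise, and Il1b entered both rankings through the f/f IMQ array alone. Untreated, EKO was above f/f by 0.24 at levels under the floor.

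Il1a, the keratinocyte alarm cytokine that acts through the same receptor, read 9.58 with IMQ and 9.26 untreated in EKO skin, against 10.86 with IMQ and 8.82 untreated in f/f skin. All 4 levels lay well above the floor. The IMQ difference was 0.31 in EKO skin and 2.04 in f/f skin, ranking 783rd of 10285 and 81st of 10548. EKO was below f/f by 1.28 with IMQ but above it by 0.44 without. The untreated difference was the 168th highest of 10200 genes.

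Il33, the nuclear alarm cytokine read by ST2, had levels of 9.31 with IMQ and 9.17 untreated in EKO skin, against 10.54 with IMQ and 8.92 untreated in f/f skin. The f/f IMQ array stood apart and the other 3 lay within 0.39 of each other. The IMQ difference was 0.14 in EKO and 1.62 in f/f skin. With IMQ, EKO was 2.35-fold below f/f (-1.23), and untreated it was above f/f by 0.25.

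Il18, the ligand of the IL-18 receptor, differed little across the arrays. Its level was 8.94 with IMQ and 8.86 untreated in EKO skin, against 8.65 with IMQ and 8.75 untreated in f/f skin. The span over all 4 arrays was 0.30, and the IMQ difference was 0.09 in EKO and -0.10 in f/f skin. EKO was above f/f by 0.30 with IMQ and by 0.11 without.

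Il1rn, the gene of the receptor antagonist, read 9.71 with IMQ and 9.36 untreated in EKO skin, against 10.30 with IMQ and 9.22 untreated in f/f skin. It passed 2-fold only narrowly in f/f skin, with a difference of 1.08, while the EKO difference was 0.35. Set against the antagonist, the IMQ difference of Il1b was larger by 0.46 in EKO skin and by 2.80 in f/f skin, values that rest on Il1b levels under the floor on 3 arrays. For Il1a this excess was -0.03 in EKO and 0.96 in f/f skin. In EKO skin Il1a and Il1rn thus differed by nearly the same amount.

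Il1r2, the decoy receptor, was the measured receptor with the largest IMQ difference in either genotype. Its level was 10.08 with IMQ and 10.48 untreated in EKO skin, against 10.02 with IMQ and 10.55 untreated in f/f skin. Both IMQ levels lay under both untreated levels, by -0.41 in EKO and -0.53 in f/f skin, and the genotypes differed by no more than 0.06 in size within a treatment. In EKO skin this placed Il1r2 423rd from the lowest of 10285 genes, and in f/f skin 1166th of 10548, where many more genes were lower.

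Il1rap, the accessory chain shared by the IL-1 and IL-33 receptors, read 8.46 with IMQ and 8.70 untreated in EKO skin, against 8.47 with IMQ and 8.68 untreated in f/f skin. Its IMQ differences of -0.24 in EKO and -0.21 in f/f skin were nearly equal. Il18r1, the ligand-binding chain of the IL-18 receptor, stayed below the floor on every array at 5.56 with IMQ and 5.76 untreated in EKO skin, against 5.42 with IMQ and 5.85 untreated in f/f skin. It could therefore not be counted by the 2-fold rule, and its differences of -0.20 in EKO and -0.43 in f/f skin are near background.

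**Figure D2:**
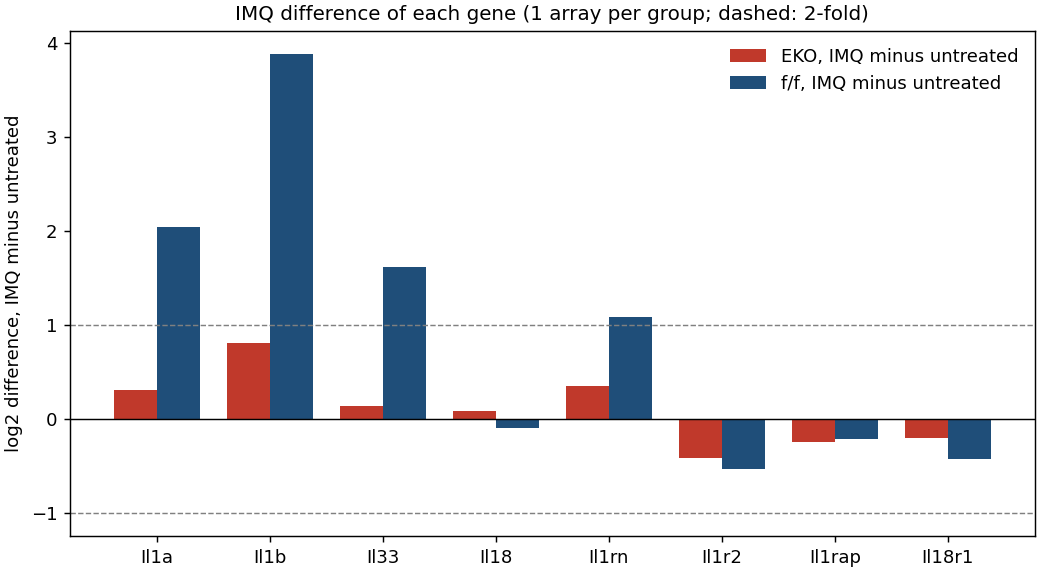
Log2 difference between IMQ and untreated skin (vertical axis) for each measured gene, EKO in red and f/f in blue, with dashed lines at 2-fold and 1 array per group. Il1b (0.81 in EKO, 3.88 in f/f), Il1a (0.31, 2.04), Il33 (0.14, 1.62) and Il1rn (0.35, 1.08) have short red and tall blue bars, whereas Il1r2, Il1rap and Il18r1 lie below 0 in both genotypes.

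The EKO response differed from the f/f response by different amounts among the 4 genes. The difference of the IMQ differences (EKO minus f/f) was -3.07 for Il1b, -1.72 for Il1a, -1.48 for Il33 and -0.73 for Il1rn. By the 2-fold rule 3 of the 7 genes that reached the floor, Il1b only on the f/f IMQ array, counted as lower in EKO and 0 as higher, beside 1.18% and 1.06% of 10646 genes. At 1.5-fold Il1rn was added, making 4 lower and 0 higher, beside 4.63% and 3.65%. The EKO difference amounted to 8.47% of the f/f difference for Il33, 15.4% for Il1a, 20.8% for Il1b and 32.1% for Il1rn. The Il1b percentage rests on levels under the floor on every array but f/f IMQ and is imprecise. Over all 403 genes at least 2-fold higher with IMQ in f/f skin, which include these 4 and were chosen by the f/f value, the median was 42.6% and the quartiles were 31.7% and 53.2%. Of the 403, 10 had a smaller percentage than Il33, 26 than Il1a, 43 than Il1b and 103 than Il1rn. No test of this difference was possible with 1 array per group.

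**Figure D3:**
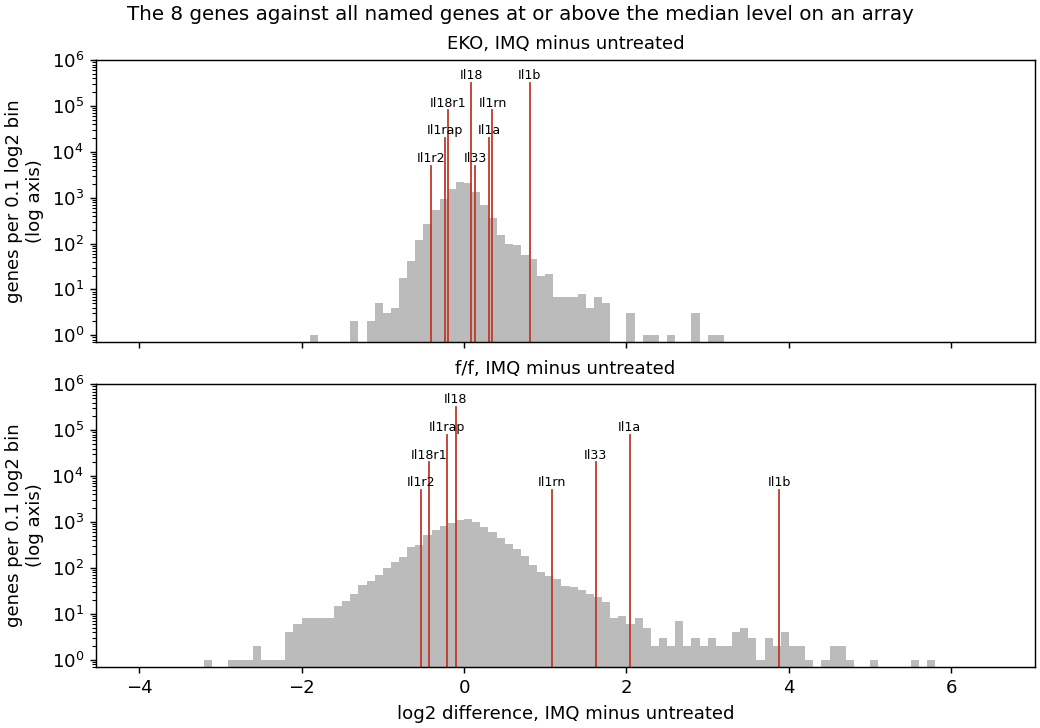
Distribution of log2 IMQ differences (horizontal axis) over the 10646 named genes at or above the floor on any array, as genes per bin of 0.1 on a log axis, for EKO above and f/f below. Red lines, whose height has no meaning, mark the 8 measured genes, including Il18r1, which is under the floor and not in the grey bars. In f/f skin Il1b at 3.88 and Il1a at 2.04 lie in the sparse right tail, and in EKO skin Il1b at 0.81 lies farthest from 0 of the 8 genes.

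The genotype comparisons share arrays with the IMQ comparisons, so they restate the same levels from the other side. With IMQ, 3 of the 7 genes that reached the floor (Il1b, through f/f skin alone, Il1a and Il33) counted as lower in EKO skin than in f/f skin and 0 as higher, beside 0.875% and 0.418% of 10282 genes. Il1rn lay outside that threshold at -0.59, and at 1.5-fold 4 genes counted as lower and 0 as higher, beside 2.61% and 2.03%. In untreated skin 6 genes reached the floor, of which 0 were higher and 0 lower in EKO by the 2-fold rule, beside 0.0686% and 0.324% of 10200 genes. The untreated differences ran between -0.09 (Il18r1) and 0.44 (Il1a), and 6 of all 8 were above 0. In 7 of the 8 genes the genotype difference had opposite signs with and without IMQ, beside 51.5% of 10646 genes, and in Il18 the IMQ difference had opposite signs in the genotypes, beside 19.2%.

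Il1a, Il1b, Il33 and Il1rn had the same order of levels, highest in f/f IMQ, then EKO IMQ, then EKO untreated, and lowest in f/f untreated skin. This order was held by 20.1% of the 10646 genes. The 4 genes are those at least 2-fold higher with IMQ in f/f skin, which already sets f/f IMQ above f/f untreated. The share covers all genes, also those lower with IMQ, so it is no like comparison for these 4. Il1r2 and Il18r1 had the exact opposite order, which 18.1% of the 10646 genes held. Neighbouring levels at the low end were close, as for Il33 in untreated skin (9.17 in EKO, 8.92 in f/f), and without replicate arrays such steps cannot be separated from array-to-array variation.

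Among 10271 of the 10646 genes, left after unnamed gene models, small RNAs, olfactory and vomeronasal receptors and the described genes were set aside, likeness was measured as the Euclidean distance between levels centred on each gene's mean over the 4 arrays. Nearest to Il1b were the small proline-rich gene Sprr2f (distance 0.33), the CCR6 ligand Ccl20 (0.50) and the cystatin gene Csta3 (0.52). Nearest to Il1a were the AP-1 subunit Fosl1 (0.29), Fgfbp1, whose product releases fibroblast growth factors from matrix (0.29), and the glucose transporter Slc5a1 (0.32). Nearest to Il33 were Tnfaip2 (0.11), Phlda1 (0.12) and the G-CSF receptor gene Csf3r (0.13), and nearest to Il1rn were Shb, Mab21l3 and Tcf23 (each 0.04). Distances grow with the size of a gene's own differences and are not comparable between Il1b and Il1rn. Sprr2f and Csta3 belong to families of near-identical genes, whose probes can cross-hybridise.

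The relatives of these cytokines outside the 10 genes were 11 further IL-1 family genes, all measured. Counts for this and the lists below follow the 2-fold rule with the floor. Over all named genes that reached the floor, 0.671% were higher and 0.0972% lower with IMQ in EKO skin. In f/f skin the shares were 3.82% and 2.63%. Of the 11 relatives, 7 reached the floor in each genotype. With IMQ, 0 of these counted as higher in EKO skin and 3 in f/f skin, and 0 as lower in either. The 3 encode IL-36 ligands, listed under older symbols. Il1f6 (IL-36 alpha) differed by 0.77 in EKO and 2.66 in f/f skin, Il1f8 (IL-36 beta) by 0.66 and 1.42, and Il1f9 (IL-36 gamma) by 0.31 and 1.07. Il18rap, the other chain of the IL-18 receptor, was below the floor on all arrays, and Il18bp, the secreted IL-18 inhibitor, differed by 0.01 in EKO and -0.08 in f/f skin.

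Of 16 measured genes for the signal path below the receptors, 0 passed 2-fold in either direction in either genotype, with medians of -0.01 in EKO and 0.03 in f/f skin. The largest f/f difference was that of Myd88, at 0.27 in EKO and 0.98 in f/f skin. It was followed by the E3 ligase gene Peli2 (-0.31 in EKO, -0.80 in f/f) and by Irak3, an inhibitory kinase of the path (0.29 in EKO, 0.78 in f/f).

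Of 22 genes for inflammasomes and cytokine processing, 10 reached the floor in EKO skin and 11 in f/f skin. Of these, 1 counted as higher and 0 as lower with IMQ in EKO skin, and 2 as higher and 1 as lower in f/f skin. Gsdmc, a pore-forming gasdermin, differed by 1.44 in EKO and 2.43 in f/f skin, and Gsdma, its epidermal relative, by 0.50 and 1.27. Txnip, a thioredoxin-binding protein gene, was at -0.56 in EKO and -1.28 in f/f skin. Casp1, the gene of the protease that cleaves IL-1 beta and IL-18, differed by -0.07 in EKO and -0.40 in f/f skin. Nlrp3, an inflammasome sensor gene, read 5.05 with IMQ and 5.02 untreated in EKO skin, against 6.23 with IMQ and 5.10 untreated in f/f skin, all under the floor. Its f/f difference of 1.12 was therefore not counted.

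Of 19 measured genes known to respond to IL-1, 12 reached the floor in EKO skin and 14 in f/f skin. Of these, 0 counted as higher with IMQ in EKO skin and 6 in f/f skin, with 0 lower in either. Among the 6, Ptgs2, Ccl20 and Cxcl2 reached the floor in f/f skin only with IMQ, so they could count only as higher. Their untreated f/f levels were 6.36, 6.81 and 4.66. Cxcl5, under the floor, differed by 1.07 in f/f skin and was not counted. All 19 genes together had medians of 0.15 in EKO skin and 0.71 in f/f skin. The largest f/f differences were in the prostaglandin synthase gene Ptgs2 (0.49 in EKO, 3.23 in f/f), Ccl20 (0.96, 3.19), the neutrophil chemokine Cxcl2 (0.39, 3.15) and the iron-binding lipocalin Lcn2 (0.75, 2.64). These genes also respond to other signals, IL-17 among them. Of 11 measured genes linked to IL-33 or IL-18 output, only 3 reached the floor in each genotype, so the others could not be counted. Of the 3, 0 counted as higher with IMQ in either genotype. Retnla counted as lower in both, at -1.31 in EKO and -3.13 in f/f skin. The type 2 cytokine genes Il4, Il5 and Il13 and the interferon gene Ifng lay below the floor on all 4 arrays, with IMQ differences between -0.03 and 0.11 in EKO and between -0.10 and 0.01 in f/f skin.

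**Figure D4:**
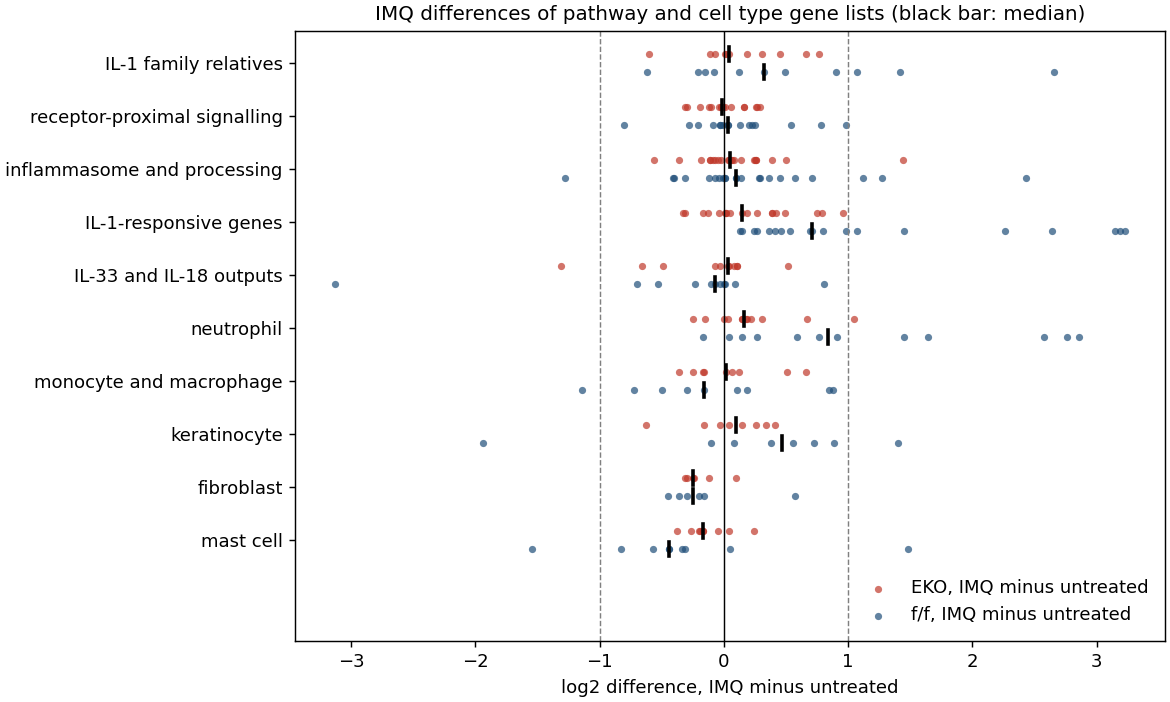
Log2 difference between IMQ and untreated skin (horizontal axis) for every measured gene of 10 gene lists, EKO in red above f/f in blue, with a black bar at each list's median and dashed lines at 2-fold. The IL-1-responsive genes have medians of 0.15 in EKO and 0.71 in f/f skin and the neutrophil markers 0.16 and 0.84, while fibroblast markers lie at -0.24 and -0.25.

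Markers of cells that could carry these transcripts moved with some of the values. Of 12 neutrophil markers, 2 reached the floor in EKO skin and 5 in f/f skin. Of these, 1 counted as higher with IMQ in EKO skin (Cxcr2) and 4 in f/f skin (Trem1, Cxcr2, Clec4e and Csf3r). In either genotype 0 counted as lower. In f/f skin the 4 reached the floor only with IMQ, so they could count only as higher. Clec4d, under the floor, differed by 1.64 in f/f skin and was not counted. Of the 12 markers, 2 reached the floor in EKO IMQ, 2 in EKO untreated, 5 in f/f IMQ and 1 in f/f untreated skin. Their mean level was 5.59 in EKO IMQ, 5.38 in EKO untreated, 6.45 in f/f IMQ and 5.29 in f/f untreated skin, the same order as for Il1b. On the linear scale their summed level was 871.3 with IMQ and 715.5 untreated in EKO skin, against 1532 with IMQ and 632.4 untreated in f/f skin. Cxcr2, at 8.94, was the highest marker in f/f IMQ skin and weighs most in that sum. Trem1, a neutrophil and monocyte receptor, differed by 0.15 in EKO and 2.86 in f/f skin, and the granule gene Ltf stayed below the floor on all arrays. Over all 12 markers, 10 IMQ differences were above 0 and 2 below in EKO skin, and 11 above and 1 below in f/f skin. Retnlg (0.15 in EKO, 0.91 in f/f), Mmp8 (0.19, 0.77) and Ly6g (-0.15, 0.59) were under the floor on all arrays. Mmp9, above the floor on all 4 arrays, differed by -0.25 in EKO and 0.04 in f/f skin, and Camp, under the floor, by 0.18 and -0.17. The part of these cells in the Il1b values was not tested. Of 9 monocyte and macrophage markers, 0 were at least 2-fold higher in either genotype, 0 were lower in EKO and 1 was lower in f/f skin (Cd163). In f/f skin 4 of the 9 IMQ differences were above 0 and 5 below. Fcgr1 differed by 0.66 in EKO and 0.88 in f/f skin, and Cd14 by 0.02 and 0.85. The summed linear level of the 9 markers was 4820 with IMQ and 4926 untreated in EKO skin, against 4541 with IMQ and 5804 untreated in f/f skin. Lyz2, the highest of them on every array, weighs most in these sums. In f/f skin it read 11.56 untreated and 10.84 with IMQ.

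For the epithelial cytokines Il1a and Il33, the 8 keratinocyte markers had median IMQ differences of 0.10 in EKO and 0.47 in f/f skin. The basal keratin Krt15 (-1.94) and the desmoglein Dsg3 (1.40) passed 2-fold in f/f skin, in opposite directions. Their summed linear level was 36470 with IMQ and 32880 untreated in EKO skin, against 35920 with IMQ and 27340 untreated in f/f skin. The 6 fibroblast markers, from a cell type that also makes IL-33, had medians of -0.24 in EKO and -0.25 in f/f skin, and the 5 endothelial markers -0.19 and -0.35. The 9 mast cell markers, from cells that bear ST2, had medians of -0.17 in EKO and -0.44 in f/f skin. In f/f skin 7 of the 9 differences were below 0, and Hdc alone counted as higher (1.48). The largest was that of Mrgprb2, at -0.38 in EKO and -1.54 in f/f skin, not counted because it was under the floor. The 9 markers of T and innate lymphoid cells, which carry receptors for IL-18 and IL-33, had medians of -0.07 in EKO and -0.12 in f/f skin. The 4 adipocyte markers had medians of -0.54 in EKO and -1.75 in f/f skin, with 1 and 4 at least 2-fold lower. The 4 skeletal muscle markers had medians of -0.25 in EKO and -0.87 in f/f skin, with 0 and 1 at least 2-fold lower. The part of changed cell numbers or tissue layers in the Il1a, Il33 and Il1rn values was not tested.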

How the data were processed

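RNA of whole ear skin was measured on 4 arrays, 1 per group, grouped by sample title. The authors deposited 35556 log2 levels per array, made with RMA per the submitters' processing notes, which give no version. RMA equalises array distributions and compresses low signals. The log2 scale was read from the values (2.58 to 13.80).

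Genes were named from the platform annotation: 21789 probe sets had 1 symbol, 1621 several and 12146 none, and only the first kind was used. The probe set with the highest mean stood for each gene. RefSeq (GRCm38.p6) held the same symbol for all 8 measured genes. Array medians were 6.52 to 6.57 and correlations between arrays, across probe sets, 0.981 to 0.995.

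Differences of log2 levels were computed for 5 comparisons with Python 3.11.15, numpy 2.4.6 and pandas 2.3.3, and the counting rule was checked on simulated data. Alternatives were median centring, cyclic loess and quantile normalization (limma 3.58.1, R 4.3.3), no floor, a 1.5-fold threshold and averaging probe sets, which cannot change genes with 1 probe set. All 10 genes are named, then up to 4 genes per list with the largest differences, the 3 nearest profiles of genes spanning at least 1 (log2), and genes a sentence on a list needed. The genes and lists were chosen with earlier results of these data known.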

Additional observations from a re-analysis of the deposited data

Results flagged for a closer look

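In 7 genes the difference between EKO and f/f skin had opposite signs with and without IMQ, on 1 array per group and without a test of the difference. Such opposite signs were held by 51.5% of 10646 genes, so the count says little about these 7. For Il1b it was -2.83 with IMQ and 0.24 untreated, a change of -3.07. For Il1a it was -1.28 with IMQ and 0.44 untreated, a change of -1.72. For Il33 it was -1.23 with IMQ and 0.25 untreated, a change of -1.48. For Il1rn it was -0.59 with IMQ and 0.14 untreated, a change of -0.73. The other 3 changes were small, at 0.23 for Il18r1, which is under the floor, 0.12 for Il1r2 and -0.04 for Il1rap, whose untreated difference changed sign under cyclic loess. Il18 had IMQ differences of opposite sign, 0.09 in EKO and -0.10 in f/f skin, which differ by 0.19; 19.2% of the genes held opposite signs there.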

How the results depend on the processing

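No paired analysis was possible because each group holds 1 array, and for the same reason no replicate could be left out. Under median centring, cyclic loess and quantile normalization, 119 of 120 recomputed differences of single genes kept their sign, and all moved by at most 0.10. The exception was Il1rap untreated, EKO against f/f, at 0.0193 as deposited and -0.00043 after cyclic loess. A scaling shifted the median of all genes by at most 0.05. The deposited levels were already normalised by RMA, with array medians of 6.52 to 6.57, so these scalings had little room to move them. The 120 values include the difference of the IMQ differences, which follows from the others. Averaging probe sets could not change a gene described here, since each has 1. The counts of genes past 2-fold were the same under the 3 scalings and without the floor. At 1.5-fold, 4 genes rather than 3 were lower in EKO than in f/f skin with IMQ, beside 2.61% of genes, and 4 rather than 3 in the difference of the IMQ differences, beside 4.63%. With genes at the floor only, the median was 1.08 for IMQ in f/f skin, -0.59 for EKO against f/f with IMQ and -0.73 for the difference of the IMQ differences; the 8-gene medians were 0.49, -0.30 and -0.38. That setting drops Il18r1, which is under the floor on every array.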
